A study of Mus musculus with 8 samples.

Results

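H/ACA box snoRNAs and the small Cajal body RNAs were followed through their short fragments in male mouse germ cells. The members were all distinct sequences of 18 to 40 nt that were found without mismatch, on the sense strand, in a GENCODE transcript whose gene name begins with Snora or Scarna. They were 409 of 1623106 distinct sequences of that length. Of 49 annotated Snora and Scarna genes, 43 had at least 1 read and 6 had none, namely Snora2b, Snora23, Snora33, Snora35, Snora43 and Snora47. The mPGC groups were sorted from male GOF18 embryos, which carry a Pou5f1-driven EGFP reporter, on embryonic days E12.5, E13.5 or E15.5, and the other group was D6 mPGCLCs made in culture from the XY SGET ESC line, sorted as Stella-GFP-positive and Esg1-tdTomato-negative. Each group had 2 libraries. Each mPGC replicate was a pool of embryos from its own litter, and the SGET mPGCLCs came from a single cell line. For that line the study gives a mixed background that includes B6CBA, so strain differs along with culture between SGET mPGCLCs and mPGCs. For the mPGCs the labels give a C57BL/6J background and sorting on SSEA1 and CD61, whereas the study's methods give a mixed FVB/C57BL/6J background and sorting on EGFP.

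H/ACA RNAs fold into a pair of hairpins, each followed by a short single-stranded box, and the ACA box lies 3 nt from the 3′ end. They bind dyskerin, Nop10, Nhp2 and Gar1, and base-pair with rRNA to place pseudouridines. Small Cajal body RNAs guide modifications of the spliceosomal snRNAs, and some of them carry C/D boxes. Nearly all of these RNAs are cut out of introns of host genes, many of which encode ribosomal proteins or translation factors. In the annotation 45 of 51 member transcripts lay in an intron of a host transcript, and 35 of 42 Snora transcripts had ACA 3 nt from their end. Of 9 Scarna transcripts 2 did, and of 99 C/D box (Snord) transcripts none did.

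The sequences below were the most abundant ones of RNAs that lead the results, with the terminal ACA box in capitals where a fragment covers it. They are fragments of GRCm38 transcripts, read 5′ to 3′.
Snora57: cctcagacgccggaACActt
Snora75: ttggctgttgtgtgagACAtta
Snora41: ggaggattatgtgtgacagACA
Snora24: agattctgacttgagcaagtgACAttc
Snora26: tcctgtctggagtcACAaat
Snora73b: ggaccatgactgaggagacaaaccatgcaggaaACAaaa
Snora64: actctctcactctgcatggttaca
Scarna6: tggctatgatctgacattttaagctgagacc
Snora57, Snora75, Snora24, Snora26 and Snora73b ended at the last base of their RNA. The Snora41 fragment stopped right after its ACA box, at base 129 of 132. The Snora64 fragment was the opposite case, the first 24 bases of a 134-nt RNA. They lay at chr19:8888538-8888557 on the minus strand (Snora57, for which no host gene was annotated), chr1:86351169-86351190 on the minus strand (Snora75, in an intron of Ncl, which encodes nucleolin) and chr1:63179111-63179132 on the plus strand (Snora41, in an intron of Eef1b2, which encodes a translation elongation factor subunit). The others lay at chr3:123507937-123507963 on the minus strand (Snora24, in Snhg8), chr5:74093631-74093650 on the plus strand (Snora26, in Dancr) and chr4:132352322-132352360 on the minus strand (Snora73b, in the Rcc1 and Snhg3 locus). Snora64 lay at chr17:24720772-24720795 on the plus strand, in an intron of the ribosomal protein gene Rps2, and Scarna6 at chr1:87784790-87784820 on the plus strand, in an intron of the autophagy gene Atg16l1.

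Libraries held 7447873 to 26552524 mapping reads. Both E15.5 libraries differed from the other 6 in composition. Reads of 26 to 29 nt with a 5′-U, the size of fetal piRNAs, made up 49.9% and 50.9% of them against 1.12% to 7.92% elsewhere. Reads of 15 to 17 nt made up 6.90% and 3.07% against 24.002% to 38.5%. The summed germ cell and pluripotency miRNAs of the Mir290 and Mir302 clusters made up 0.319% and 0.248% at E15.5 against 3.197% to 9.302% in the other 6 libraries. Of other cell types, the red blood cell miRNAs Mir451a and Mir144 summed to 0 in 6 of 8 libraries, and endothelial Mir126a stayed at or below 0.00694% in all 8. Mir202, a marker of gonadal somatic cells, was at 0 in both SGET libraries and between 0.00557% and 0.0433% in the mPGCs.

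H/ACA and Cajal body RNA fragments were rare at E12.5, E13.5 and in SGET mPGCLCs, and rarer still in both E15.5 libraries. The E12.5 libraries held 0.0447% (0.0432 to 0.0462, 95% Wilson interval) and 0.0538% (0.0526 to 0.0550) of such reads among their mapping reads. At E13.5 the shares were 0.0265% (0.0256 to 0.0274) and 0.0589% (0.0578 to 0.0599). At E15.5 they were 0.00250% (0.00225 to 0.00278) and 0.0109% (0.0105 to 0.0113), and in SGET mPGCLCs 0.0503% (0.0490 to 0.0517) and 0.0392% (0.0379 to 0.0404). Both E15.5 libraries lay below all 6 others, while the other 3 groups overlapped.

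**Figure D1:**
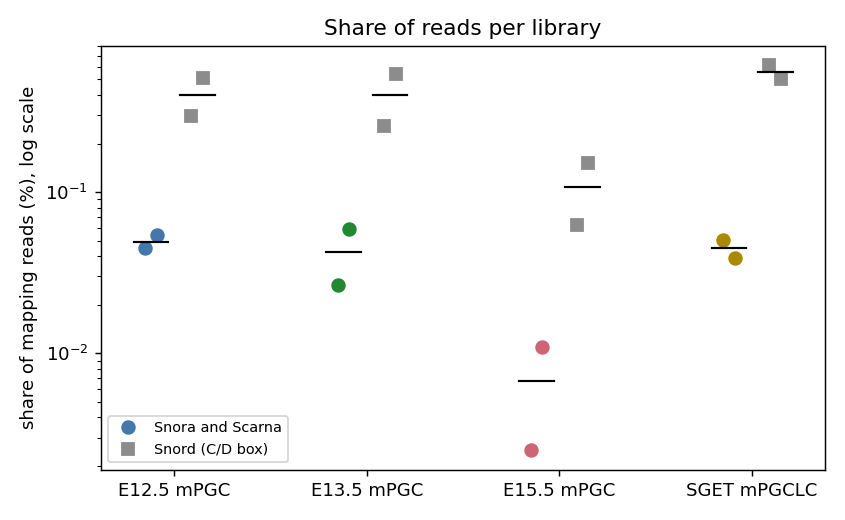
Percent of mapping reads (log axis) from Snora and Scarna RNAs (circles) and from C/D box Snord RNAs (grey squares) in each library, with a line at the mean of 2 libraries. Both E15.5 libraries sit lowest for both classes, at 0.00250% and 0.0109% for Snora and Scarna.

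The group means were 0.0493% ± 0.00644, 0.0427% ± 0.0229, 0.00670% ± 0.00594 and 0.0447% ± 0.00789 (SD, n = 2) for E12.5, E13.5, E15.5 and SGET. The E15.5 mean was 0.157 times that of E13.5, and with 2 libraries against 2 the two-sided exact permutation test gave p = 0.33, the smallest it allows. Over all 4 groups the exact permutation test of the F ratio on log2 shares gave p = 0.13 and did not pass 0.05. With a single group apart and the others overlapping, arrangements that keep its pair together score about as high. This test therefore cannot decide whether E15.5 alone differed. SGET mPGCLCs had 0.909 times the E12.5 share (exact permutation p = 0.67) and 1.05 times the E13.5 share (exact permutation p = 1.0), and E13.5 had 0.866 times the E12.5 share (exact permutation p = 1.0). The intervals treat reads as independent, but a count includes PCR copies, so they are too narrow even for counting error. In E13.5 replicate 1, 3189 member reads came from 23 distinct sequences, and in E15.5 replicate 1, 340 came from 14. Fewer fragments per cell cannot be told apart from more reads of other kinds. When reads of piRNA size with a 5′-U were left out of the total, the E15.5 mean was 0.0136% and its ratio to E13.5 was 0.297. The cause of the remaining difference was not tested.

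Set against fragments of C/D box RNAs, which as whole RNAs guide 2′-O-methylation of rRNA and come from introns in the same way, the groups differed. Snora and Scarna reads came to 15.2% and 10.6% of the Snord reads in the E12.5 libraries, 10.2% and 10.96% in those of E13.5, 3.99% and 7.18% in those of E15.5, and 8.22% and 7.77% in those of SGET mPGCLCs. Both E15.5 libraries were lowest, SGET mPGCLCs came next, and E12.5 and E13.5 overlapped. The exact permutation test over the 4 groups gave p = 0.019, the one of 4 denominators tried with which it passed 0.05. The Snord share itself was lower at E15.5, at 0.107% ± 0.0632 (SD, n = 2) against 0.401% ± 0.1499 at E12.5, 0.398% ± 0.197 at E13.5 and 0.558% ± 0.0765 in SGET mPGCLCs.

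In every library but E15.5 replicate 1, most member reads came from the 3′ part of the RNA. That end holds the ACA box in most Snora RNAs but not in most Scarna RNAs. Each RNA was divided into 3 equal parts, and a fragment was placed by its midpoint. The 3′ part held 71.4% and 55.4% of member reads in the E12.5 libraries, 85.5% and 68.1% in those of E13.5, 41.8% and 69.1% in those of E15.5, and 53.0% and 77.2% in those of SGET mPGCLCs. The 5′ part held between 10.7% and 46.5%, and the middle part between 0.932% and 11.8%. The middle of the RNA was thus the least covered part in every library. Differences among the 4 groups did not exceed the spread between libraries for the 3′ part (exact permutation p = 0.56) or the 5′ part (exact permutation p = 0.54).

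**Figure D2:**
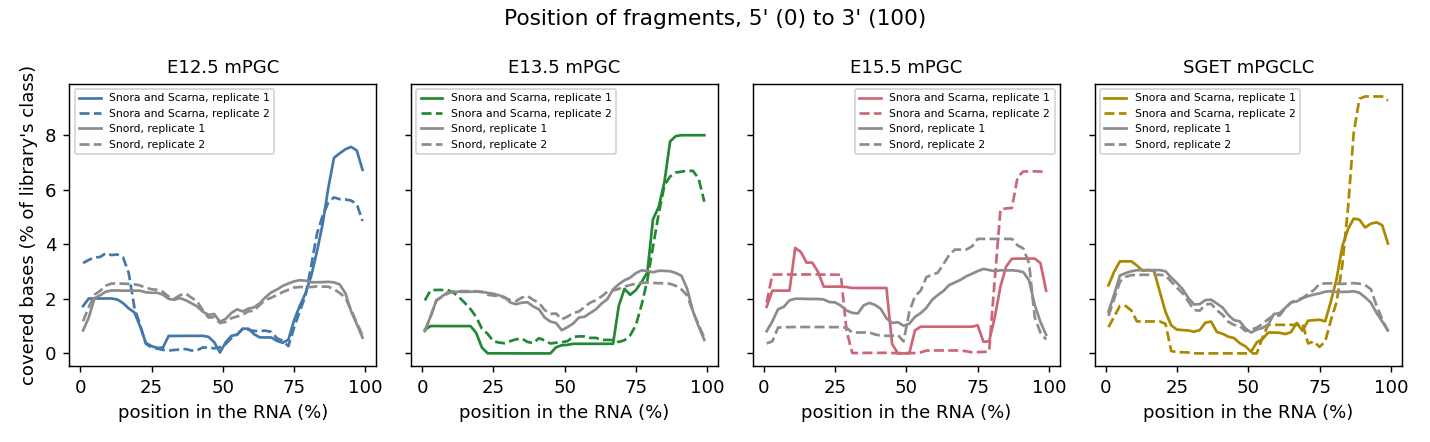
Covered bases along the RNA from the 5′ end (0%) to the 3′ end (100%), as percent of each class and library, for Snora and Scarna (colour) and Snord (grey), replicate 1 solid and replicate 2 dashed. Snora and Scarna coverage is highest near the 3′ end in 7 of the 8 libraries, E15.5 replicate 1 being spread over both sides.

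Fragments of C/D box RNAs were less one-sided in 6 libraries. Their 3′ part held 43.4% to 52.0% at E12.5 and E13.5, 53.9% and 81.1% at E15.5, with 38.8% and 42.1% for SGET mPGCLCs. The Snora and Scarna value was higher within all 6 E12.5, E13.5 and SGET libraries and lower within both E15.5 libraries, by a mean of 14.1 ± 18.1 percentage points (SD, n = 8), which did not pass the exact sign-flip permutation test (p = 0.078). These parts are longer in H/ACA RNAs, whose median length was 133 nt against 84 nt for Snord RNAs. Within 5 nt of the annotated end, the difference was 20.4 ± 17.2 points, higher in 7 of 8 libraries (exact sign-flip permutation p = 0.023).

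The ends themselves were then compared. Reads that stopped at the very last annotated base made up 62.8% and 44.0% of member reads in the E12.5 libraries, 85.5% and 51.7% in those of E13.5, 27.6% and 68.6% in those of E15.5, and 37.8% and 73.7% in those of SGET mPGCLCs. For C/D box reads the values ran from 5.05% to 11.9%. The classes did not overlap, and the difference of 47.4 ± 20.97 points was positive in 8 of 8 libraries (exact sign-flip permutation p = 0.0078, the smallest possible). This measure was chosen after the data were seen, and it depends on how exactly each class is annotated. With each distinct sequence counted once the difference was 43.5 ± 12.8 points, and with the 3 leading sequences of every library left out it came to 43.01 ± 11.7 points, each positive in 8 of 8 libraries.

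Single RNAs differed in which side they left. Of 38 genes with at least 100 reads over the 8 libraries, 23 had most reads in the 3′ part, 9 in the 5′ part and 6 in neither. Reads were summed over the libraries, so for some genes the side rests on few sequences. All 202 reads of Snora15 were 1 sequence in SGET replicate 1, and 859 of 2015 Scarna3a reads were 1 sequence in E15.5 replicate 2. Snora41, Snora61, Snora21 and Snora57 had 97.5%, 99.8%, 96.7% and 94.1% of their reads in the 3′ part. Snora73b and Snora73a, the U17 RNAs that take part in cleavage of the rRNA precursor, had all of their reads there. Snora64 and Snora62 were the reverse, with 81.1% and 94.9% in the 5′ part. Snora44 and Snora7a were divided, with 51.5% and 54.01% in the 5′ part and 40.99% and 45.99% in the 3′ part.

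Fragments were short at E12.5, E13.5 and in SGET mPGCLCs, with mean lengths of 25.98 and 25.8 nt, 25.1 and 26.7 nt, and 26.1 and 24.03 nt. At E15.5 replicate 1 had 25.6 nt and replicate 2 had 37.5 nt. In that library 83.6% of the member reads were 34 to 40 nt long, against 4.07% to 14.96% in the other 7. Over the 4 groups, mean length did not differ beyond the spread (exact permutation p = 0.69).

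**Figure D3:**
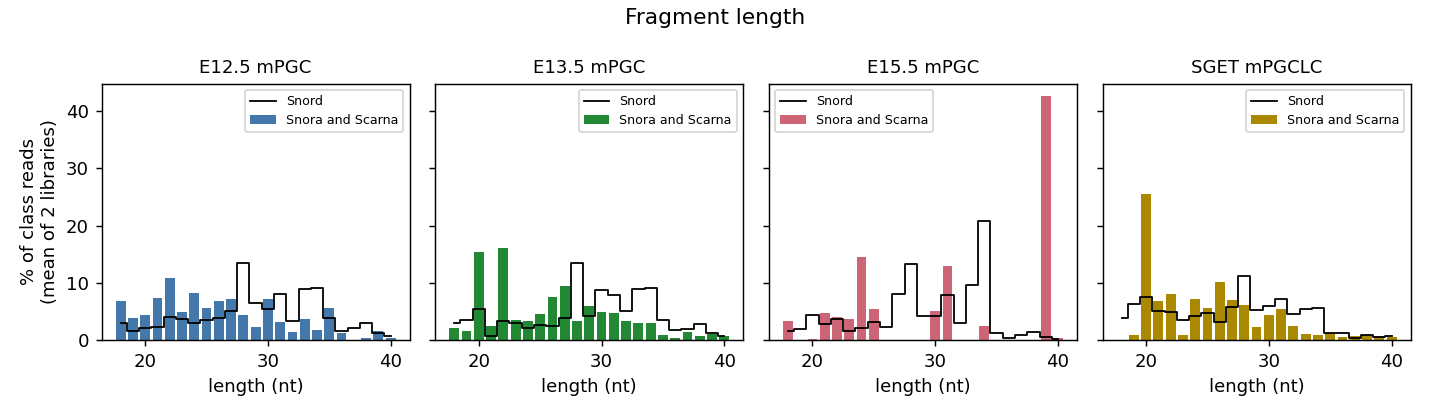
Length of Snora and Scarna reads (bars) and Snord reads (black line), as percent of the class, mean of 2 libraries per group. The tall bar at E15.5 is 39 nt and comes from replicate 2, whose mean length was 37.5 nt.

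Fragments with piRNA-like features, 26 to 29 nt with a 5′-U, were a small part of the members. They made up 2.70% and 5.79% in the E12.5 libraries, 8.25% and 2.60% in those of E13.5, 0.0% and 0.0691% in those of E15.5, and 12.1% and 4.77% in those of SGET mPGCLCs. They were thus lowest in the libraries in which reads of that kind were most frequent. The exact permutation test over the 4 groups did not pass (p = 0.24), with the limit given above for a single group apart. The E15.5 values rest on few sequences, 14 in replicate 1, and 3 that held 96.7% of member reads in replicate 2. With each distinct sequence counted once, the mean was 1.69% at E15.5. It was then 3.56% at E12.5, 4.15% at E13.5 and 8.25% in SGET mPGCLCs. The first base was U in 15.4% to 43.9% of member reads. In E15.5 replicate 2 it was G in 53.9%, and 1 Snora73b sequence that begins with G held 53.1% of the member reads of that library.

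The RNAs that led the list changed from library to library. Snora64 led at E12.5, with 66.1 and 62.2 RPM (reads per 1000000 mapping reads). It had 0 and 26.6 in the libraries of E13.5, 1.62 and 0.113 in those of E15.5, and 48.5 and 14.3 in those of SGET mPGCLCs, so only the E12.5 libraries were close to each other. Snora57, whose reads are shared with the unnamed copy Gm26132, led in SGET mPGCLCs with 59.1 and 121 RPM, against 28.7 and 21.4 at E12.5, then 0 and 11.1 at E13.5, and 0.0735 and 0 at E15.5. The SGET values lay above all others. In SGET replicate 2, however, a single 20-nt sequence gave 994 of the 1151 reads, and it had 0 reads in replicate 1.

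Snora75 had 34.2 and 41.0 RPM in the E12.5 libraries, 0 and 34.3 in those of E13.5, 0 and 0.339 in those of E15.5, and 49.95 and 2.31 in those of SGET mPGCLCs. Snora41 had 42.3 and 24.9 in the E12.5 libraries, 0.083 and 29.2 in those of E13.5, 1.69 and 0.264 in those of E15.5, and 41.6 and 0 in those of SGET mPGCLCs. For both, replicates of E13.5 and of SGET mPGCLCs were as far apart as the groups. At E13.5, Snora21 (shared with Gm23795, in an intron of the ribosomal protein gene Rpl23) led with 65.3 and 14.1 RPM, followed by Scarna9 with 55.3 and 7.75. Snora26 reached 80.5 in SGET replicate 2, where a single sequence gave 766 of its 767 reads, and was at 0 in SGET replicate 1. It ranged from 0 to 15.8 in the mPGCs.

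At E15.5 the leading RNAs rested on 1 library. Snora73b had 58.0 RPM in replicate 2 and 0.588 in replicate 1, against 0 to 11.97 in the other groups. The 39-nt Snora73b fragment shown above supplied 1538 of its 1539 reads in replicate 2, and had 8 reads in replicate 1. Scarna3a followed with 32.4 and 0, from a single 39-nt sequence of 859 reads, and Scarna6 with 15.2 and 0. In E15.5 replicate 1, which held 340 member reads in all, Scarna9 led with 7.21 RPM.

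**Figure D4:**
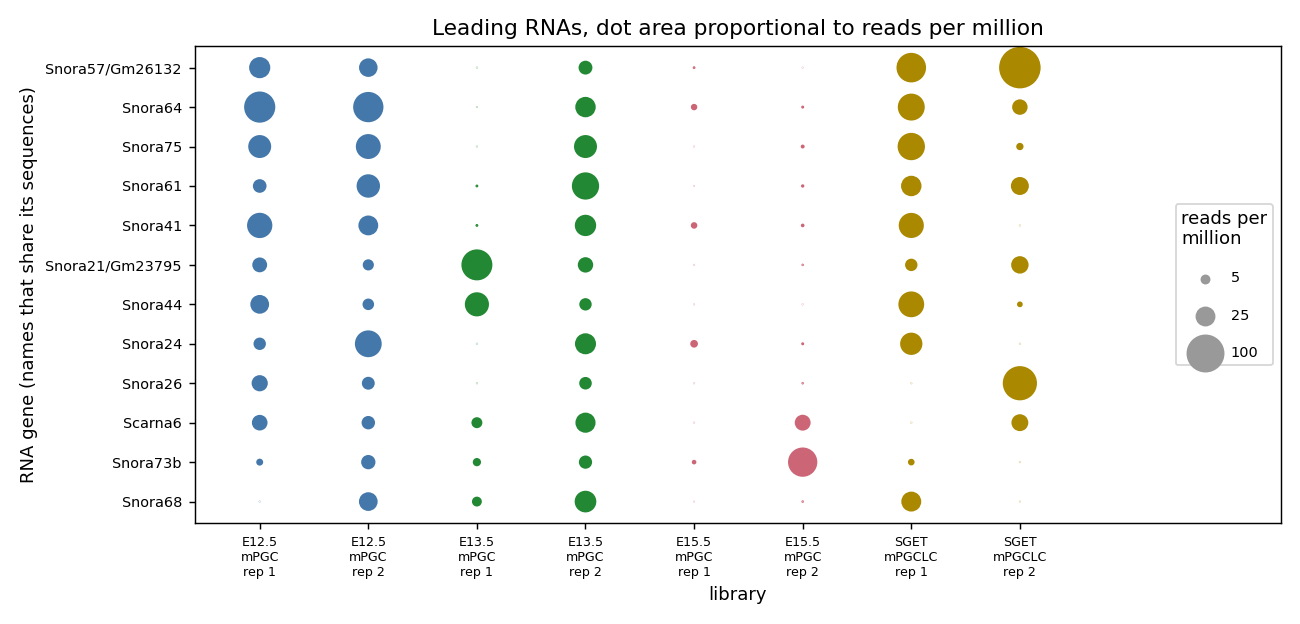
RPM (dot area) of the 12 RNAs with the highest mean over the 4 groups, in each of the 8 libraries. Snora64 is large in both E12.5 libraries, while Snora26 and Snora73b are large in 1 library each.

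Of 75 member entries (a gene, or genes that share a sequence), 43 passed the filter on low counts and entered edgeR's quasi-likelihood test among 7370 entries. None of the 43 passed an adjusted p of 0.05 in any of the 4 contrasts, where 0.231% of all entries were called for E13.5 against E12.5, 0.909% for E15.5 against E13.5, 0.339% for SGET mPGCLCs against E12.5 and 1.55% for SGET mPGCLCs against E13.5. At an unadjusted p under 0.05, edgeR gave 7 lower member entries of 43 for E15.5 against E13.5, where 2.89% of all entries were lower. It gave 1 lower for SGET mPGCLCs against E13.5, where 9.19% of all entries were lower. It gave 0 in either direction for E13.5 against E12.5 and for SGET mPGCLCs against E12.5, where 4.91% and 4.53% of all entries passed. The common dispersion of the counts was 5.54, so replicates differed widely, and the absence of calls does not show that these RNAs were equal between groups. For E15.5 against E13.5, 38 of the 43 had a negative fitted log2 fold change and 3 a positive one, with a median of -6.55 against -0.33 over all entries tested. Many of these entries had no reads at E15.5, so that median depends on the prior count and is no measure of size. With DESeq2, which gave no adjusted p for many entries, 1 of 26 members (Snora44) was lower at E15.5 than at E13.5, against 1.1% of all entries with an adjusted p. The entry of Scarna3a sequences that match no miRNA gene was higher at E13.5 than at E12.5 (1 of 32 members, against 3.5% of all entries) and lower in SGET mPGCLCs than at E13.5 (1 of 26 members, against 6.62%). That entry had reads in 1 of these 6 libraries alone, E13.5 replicate 2, while sequences that Scarna3a shares with Mir1843b were also read in E12.5 replicate 2 and in both SGET libraries.

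Snora64, with the most member reads over all libraries, had a log2 fold change of -3.94 ± 2.84 (SE) for E15.5 against E13.5 (edgeR adjusted p = 0.76). For Snora75 it was -6.55 ± 3.54 (SE; edgeR adjusted p = 0.74). The SE was back-calculated, as the absolute log2 fold change divided by the square root of the F statistic. Without E13.5 replicate 2 both log2 fold changes turned positive, to 6.53 and 4.28, since the other E13.5 library had no read of either RNA.

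The spread between libraries was large at the level of single sequences. Of 322 member sequences with at least 10 reads in some library, 262 (81.4%) reached that level in 1 library only, 3 did so in 5 or more, and none in all 8. For C/D box fragments the corresponding share was 66.5%, and 14 sequences reached 10 reads in all 8. At 10 or more reads in both E12.5 replicates, 10 member sequences were shared, 18.2% of those in replicate 1 and 9.35% of those in replicate 2. At E15.5 none reached 10 reads in both libraries, among 10 and 4 sequences that did so in 1 of them. The 3 most abundant sequences held 8.56% to 18.3% of member reads in 4 libraries, 41.2% to 53.9% in E13.5 replicate 1, E15.5 replicate 1 and SGET replicate 2, and 96.7% in E15.5 replicate 2.

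**Figure D5:**
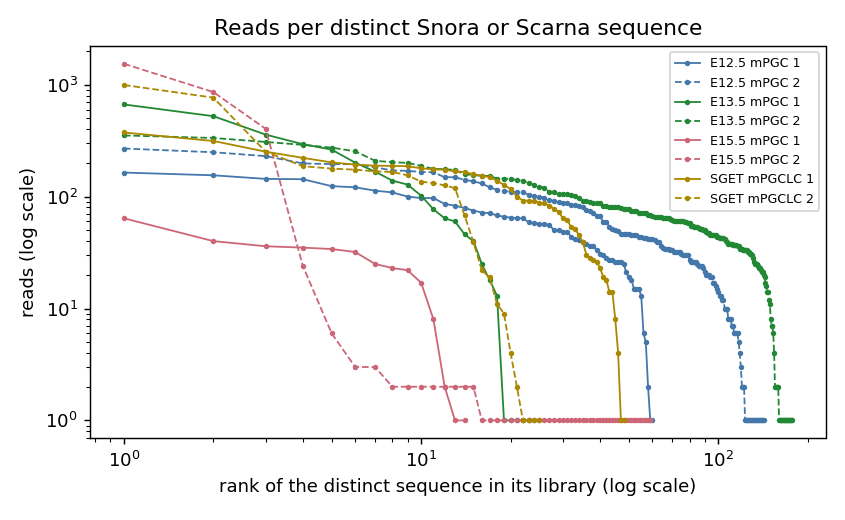
Reads of each distinct Snora or Scarna sequence (log axis) by its rank within the library (log axis), replicate 1 solid and replicate 2 dashed. In E15.5 replicate 2 the 3 leading sequences hold 96.7% of the reads and most others were read once.

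Some member RNAs also contain an annotated miRNA hairpin, and these sequences made up 1.001% to 19.1% of member reads. They are shown because their ends can be set against the RefSeq mature miRNAs, whose seed (bases 2 to 8) is in capitals.
miR-1843b-3p: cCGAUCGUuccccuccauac
Scarna3a fragment: tccgatcgttcccctccataca
miR-664-5p: cUGGCUGGggaaaaugacugg
Snora36b fragment: ctggctggggaaaatgactgga
miR-1291: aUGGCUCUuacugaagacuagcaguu
Snora34 fragment: atggctcttactgaagactagcagtt
The Snora34 fragment had the same ends as miR-1291 and was read 81 times, all in E13.5 replicate 2. The Snora36b fragment began at the first base of miR-664-5p and ran 1 base longer, with 19 and 166 reads at E12.5 and 80 in E13.5 replicate 2. The Scarna3a fragment began 1 base before miR-1843b-3p and ended 1 base after it, with 249 reads in E12.5 replicate 2 and 140 in E13.5 replicate 2. None of these 3 sequences was read at E15.5 or in SGET mPGCLCs, although other sequences of the same hairpins were. Those of the Scarna3a hairpin gave 7.15 and 39.7 RPM in SGET mPGCLCs. The Snora36b hairpin had 193 reads in SGET replicate 1 and 65 in E15.5 replicate 1, and the Snora34 hairpin had 1 in E15.5 replicate 2.

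Small Cajal body RNAs supplied 12.496% and 12.7% of member reads in the E12.5 libraries, 23.3% and 12.48% in those of E13.5, 28.8% and 44.8% in those of E15.5, and 10.5% and 19.2% in those of SGET mPGCLCs. Both E15.5 libraries were highest, on 340 and 2896 member reads, but through different RNAs. In replicate 1 the Scarna reads were 98 of Scarna9. In replicate 2 a single Scarna3a sequence gave 859 reads and a single Scarna6 sequence 403, and neither was read in replicate 1. Terc, the telomerase RNA, is an H/ACA RNA whose name lies outside the rule. It had no read at E12.5 or E13.5, 366 and 821 reads at E15.5, with 0 and 316 for SGET mPGCLCs. In E15.5 replicate 2 a single 29-nt sequence gave 820 of the 821 reads, and in SGET replicate 2 a single 26-nt sequence gave all 316.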

How the data were processed

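Small RNA of male mPGCs (E12.5, E13.5, E15.5) and D6 SGET mPGCLCs was analysed, with 2 libraries per group. The authors trimmed reads with cutadapt 3.2, mapped them to GRCm38 with STAR 2.5.3a, and deposited raw counts for every distinct sequence, not normalized and with PCR copies included. Both versions are those of the submitters' processing notes. Libraries held 7447873 to 26552524 reads. The 95% Wilson intervals cover counting error only and treat reads as independent, so with PCR copies they are too narrow. Instruments could not be assigned to libraries.

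Sequences of 18 to 40 nt were matched exactly to GENCODE M21 transcripts. A share is a percent of all mapping reads, and a fragment is placed in the 5′, middle or 3′ part by its midpoint. Shares, positions and lengths were compared by exact permutation tests (Python 3.11.15, numpy 2.4.6, pandas 2.3.3, scipy 1.17.1). Counts per entry were tested with edgeR 4.0.16 (quasi-likelihood, all 4 groups, total reads as library size, Benjamini-Hochberg adjustment) in R 4.3.3, and with DESeq2 1.42.0 as an alternative. Scripts were tested on simulated data.

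Genes named are the 12 with the highest mean share, the 5 leading in each group, Snora73a and Snora73b. Others were named after their values were seen. Scarna15 had no value under that name. H/ACA copies with other names were not analysed here. Members, lists and tests were chosen with earlier results of these data known. Mir290 and Mir302 clusters, Mir451a, Mir144, Mir126a, Mir1a, Mir133a and Mir202 served as cell type markers, and the muscle miRNAs Mir1a and Mir133a summed to at most 0.00167% of reads.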

Additional observations from a re-analysis of the deposited data

Results flagged for a closer look

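The position of Snora and Scarna reads relative to C/D box reads went one way at E15.5 and the other way in every other group. In the 3′ part of the RNA, the mean difference was 17.1 percentage points at E12.5, 26.8 at E13.5 and 24.6 in SGET mPGCLCs, each positive in both libraries, and -12.1 at E15.5, negative in both libraries. Against E15.5 these means differed by 29.2 points for E12.5 and 38.9 points for E13.5, and E15.5 minus SGET mPGCLCs was -36.7 points. In the 5′ part it was -16.47, -22.98 and -22.95 points in the former groups and 11.3 at E15.5, which gave -27.8 points for E12.5 minus E15.5, -34.3 points for E13.5 minus E15.5 and 34.3 points for E15.5 minus SGET mPGCLCs. The difference between groups was not tested. Of the E15.5 libraries, replicate 1 held 340 member reads, and in replicate 2 the 3 most abundant sequences held 96.7% of them. With each distinct sequence counted once, the difference in the 3′ part was 3.51 and 23.4 points in the E15.5 libraries.

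Sense reads of 15 to 17 nt, shorter than the range used above, were also found in Snora and Scarna RNAs, 4364 in all. They came to 51.7 and 66.6 RPM at E12.5, 39.8 and 32.99 in those of E13.5, 2.94 and 0.188 in those of E15.5, and 123 and 67.2 in those of SGET mPGCLCs. At this length an exact match can belong to other places in the genome, which was not tested. No antisense read of 18 to 40 nt was found in any library.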

How the results depend on the processing

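The mean E15.5 share stayed below the mean E13.5 share in every alternative. Ratios ran from 0.0272 (with the 3 leading sequences of every library left out) to 0.527 (per C/D box read), and from 0.0586 to 0.256 without 1 library. With each distinct sequence counted once the ratio was 0.243, but the libraries of the 2 groups then overlapped (exact permutation p = 0.67). The other ratios were near 1 and turned. SGET over E13.5 was 0.989 without piRNA-sized 5′-U reads in the total, 0.754 per C/D box read, 0.947 with sequences matching no other small RNA gene, 0.512 with each distinct sequence counted once and 0.877 without the 3 most abundant sequences, and ran from 0.760 to 1.69 without 1 library. Without 1 library, E13.5 over E12.5 ran from 0.538 to 1.195, and SGET over E12.5 from 0.795 to 1.02. The cause was not tested.

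Shares moved by more than the spread between replicates as follows. A share of another total, such as C/D box reads, must differ by its denominator, so its move says nothing about sensitivity. At E12.5 the share was 0.0790% of 18 to 40 nt reads, 12.9% of C/D box reads and 0.0382% without other small RNA genes. It was 10.6% of C/D box reads at E13.5. At E15.5 it was 0.0136% without piRNA-sized reads and 5.59% of C/D box reads. In SGET mPGCLCs it was 0.0691% of 18 to 40 nt reads, 7.998% of C/D box reads, 0.0294% without other small RNA genes, 0.0189% of distinct sequences and 0.0296% without the 3 most abundant. Among the 4 groups, only the share per C/D box read passed (exact permutation p = 0.019, range over the alternatives with all libraries 0.019 to 0.34).

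Relative to C/D box reads, the difference in the 3′ part was 20.4 points within 5 nt of the end, 11.5 with distinct sequences, 17.8 without Snora64 and 47.4 at the exact end, all past the exact sign-flip test that the main value missed, and ran from 11.1 to 17.9 without 1 library. In the 5′ part it was -13.9 within 5 nt, -12.1 with distinct sequences, -15.98 without Snora64 and -13.1 without the 3 most abundant, also past the test, and ran from -16.2 to -9.94 without 1 library. It was -10.2 (exact permutation p = 0.17) with sequences of a single member gene and no miRNA, and -1.31 (exact permutation p = 0.66, higher in 3 of 8 libraries) for reads that begin exactly at the 5′ end. At E15.5 the 5′ part held 26.3% of distinct sequences, 19.2% of reads without the 3 most abundant and 8.91% exactly at the 5′ end.

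Mean length with distinct sequences was 27.8 nt at E12.5, 28.6 nt at E13.5 and 29.2 nt in SGET mPGCLCs. Without the 3 most abundant it was 26.02, 27.3 and 27.5 nt, and without Snora64 26.2 nt at E12.5. Reads of 26 to 29 nt with a 5′-U were 9.43% at E13.5 without the 3 most abundant, and at E15.5 1.69% of distinct sequences and 1.04% without the 3 most abundant. The exact end, the minimum of 10 reads and leaving out the 3 most abundant sequences were chosen after seeing the data.

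edgeR called 0 member entries in its alternatives that kept both libraries of each group, and these called few entries of any kind. With TMM normalization of library sizes, 7 of 7370 entries were called for E13.5 against E12.5 and 27 for E15.5 against E13.5. For SGET mPGCLCs 4 were called against E12.5 and 27 against E13.5. With only the 2 groups compared, the calls were 17 of 4077, 118 of 5447, 0 of 1797 and 1 of 2243 in the same order. DESeq2 called 1 higher for E13.5 against E12.5, 1 lower for E15.5 against E13.5 and 1 lower for SGET mPGCLCs against E13.5, where 3.5%, 1.1% and 6.62% of all entries with an adjusted p were called in that direction. Same-numbered libraries did not deviate together (correlations -0.0753 to 0.0179), so the numbers do not pair them. With a replicate block 0 member entries were called, and over all entries 70 instead of 114 for SGET mPGCLCs against E13.5. The paired ratio of E15.5 over E13.5 was 0.132. Snora75 in SGET mPGCLCs against E12.5 had a log2 fold change of -0.53 that became 0.14 with DESeq2 and 0.21 with the replicate block, and ran from -4.02 to 0.41 without 1 library. Without 1 library, E15.5 against E13.5 ran from -6.77 to 6.53 for Snora64 and from -10.72 to 4.28 for Snora75, and Snora75 in SGET mPGCLCs against E13.5 from -2.89 to 11.44. A lone library was then assumed to vary like the other groups. Values of E15.5 replicate 1 rest on 340 member reads of 14 distinct sequences, among 13601492 mapping reads. What limits their precision was not tested.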
